A study of Drosophila melanogaster with 2 samples.

Results

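Transfer RNA (tRNA) genes were described in a map of E(spl)m3-HLH binding in the Drosophila melanogaster embryo. All genes annotated with the biotype tRNA were taken, 312 in number, and the 290 on the chromosome arms were analysed, among 18164 annotated genes on the arms without transposable elements. The other 22 are mitochondrial, and the peak lists held no interval there. Chromatin immunoprecipitation sequencing had been done on whole embryos aged 0 to 24 h, males and females mixed, of a transgenic line that stably makes E(spl)m3 with GFP at its C terminus. All samples carry that transgene, so the data form 1 group, and the labels number its 2 biological replicates 2 and 3. The precipitation used an antibody to GFP per the description, while the antibody field names E(spl)m3-HLH, and chromatin had been sonicated to 200 to 800 bp. The samples pool every tissue and many stages, and the control library was not analysed here.

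A tRNA gene is transcribed by RNA polymerase III from a promoter inside the gene itself. The factor TFIIIC binds its A box and B box and places TFIIIB just upstream, which recruits the polymerase. Many tRNA genes exist in identical copies, often in tandem clusters and often inside introns of protein-coding genes. The tagged protein belongs to the basic helix-loop-helix repressors that Notch signalling turns on, a family that binds E box and N box sequences.

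The sequences of 6 tRNA genes are each given 5′ to 3′ on the gene's own strand in build dm6 (RefSeq sequence of the same assembly). Capitals mark the core of the A box, TNGCNNAG, and of the B box, GTTCNANNC, where N is any base. The A box form has no match in tRNA:Val-TAC-1-1 and tRNA:Gln-TTG-1-3, where only the B box core is marked. The first 3 genes lie nearest to 3 of the 4 strongest peaks described here, and the last 3 have a weaker summit inside the gene. In that order they lie at chr3R:8669081-8669174 (minus strand), chr3L:5356343-5356415 (plus), chr3R:24112964-24113047 (plus), chr3R:26947512-26947583 (minus), chr3R:20604749-20604832 (minus) and chr3L:3095991-3096062 (plus).
tRNA:Tyr-GTA-1-8: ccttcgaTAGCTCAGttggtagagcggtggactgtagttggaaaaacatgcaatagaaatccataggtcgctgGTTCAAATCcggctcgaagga
tRNA:Val-TAC-1-1: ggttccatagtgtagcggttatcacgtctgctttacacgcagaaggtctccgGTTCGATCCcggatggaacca
tRNA:Leu-TAA-2-1: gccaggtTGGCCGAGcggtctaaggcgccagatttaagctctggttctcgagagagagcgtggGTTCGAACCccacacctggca
tRNA:Gln-TTG-1-3: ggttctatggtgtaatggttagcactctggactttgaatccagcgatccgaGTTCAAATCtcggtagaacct
tRNA:Leu-TAA-1-1: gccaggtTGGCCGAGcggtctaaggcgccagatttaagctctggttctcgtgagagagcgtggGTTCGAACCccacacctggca
tRNA:Cys-GCA-1-2: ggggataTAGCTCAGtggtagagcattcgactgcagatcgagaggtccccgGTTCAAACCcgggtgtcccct
The B box core was found in 271 of the 290 genes (93.4%) and the A box core in 144 (49.7%). A box matches followed the amino acid, with all genes of Ala, Leu and Lys, among others, and none of Glu, Pro and Val. The search was for a fixed form, so a gene without a match is not shown to lack the box. The Tyr gene has an intron, as do 16 of the 290, which adds to the distance between its boxes.

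Windows of 50 bp to each side of 2 summits are shown for contrast, on the plus strand of dm6. The first is the strongest peak near any tRNA gene, at chr3R:8669328-8669428, and the second lies at chr3R:19671823-19671923. Capitals mark the N box form CACNAG, here as its reverse complement.
Tyr-GTA-1-8 summit: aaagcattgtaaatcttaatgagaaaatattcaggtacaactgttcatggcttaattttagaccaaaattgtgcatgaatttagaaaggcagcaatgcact
Val-CAC-2-5 summit: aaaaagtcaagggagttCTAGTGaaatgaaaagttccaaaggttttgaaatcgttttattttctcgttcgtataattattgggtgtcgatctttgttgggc
The E box, CACGCG, N box and DREF sequences named further on do not occur in the first window, and CACNAG is the only one of them in the second.

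The peak lists used were each on dm6 and each with a summit position and the authors' signal, a score that each list gives on its own scale. The thresholded list, kept by the irreproducible discovery rate procedure, held 5701 peaks. The list of pooled alignments held 25791, replicate 2 held 30000 and replicate 3 held 24781. Lists other than the thresholded one were deposited as peaks and background. Read depth is unknown, and signals of different lists are not compared in size.

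Strong peaks near tRNA genes were uncommon. A thresholded summit lay within 1 kb of 33 of the 290 genes (11.4%, 95% Wilson interval 8.22 to 15.6), where 7.83% of all windows of the median tRNA length on the arms had one. Protein-coding genes had one within 1 kb of a transcription start site (TSS) in 26.8% of cases. The share was also higher than that of tRNA genes for ncRNA (16.8%), small nucleolar RNA (snoRNA, 24.2%) and small nuclear RNA genes (28.1%). None of the 99 rRNA genes had a thresholded summit within 1 kb, but 96 of them are 5S copies in 1 tandem array. Distances of all RNA genes were taken from the whole gene span, whatever its length. Neighbouring tRNA genes share peaks, so intervals over genes are too narrow. With genes within 20 kb counted once, 22 of 120 clusters (18.3%, 12.4 to 26.2) had a thresholded summit near a member. A cluster counts through any of its members, so this share cannot be read beside the 7.83% of single windows. Of the 59 genes alone in 20 kb, 8 had one (13.6%, 7.03 to 24.5), and 7.83% lies inside that interval. No thresholded summit fell inside a tRNA gene, and 0 of 290 allows a share of up to 1.03%. Thresholded intervals overlapped 4 tRNA genes. Within 250 bp, 10 genes (3.45%, 1.88 to 6.23) had a thresholded summit, beside 2.35% of windows. At that distance snoRNA genes stood lower, at 2.23%, and ncRNA and small nuclear RNA genes higher, at 10.3% and 12.5%.

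The position of coding promoters moved with these counts. Of the 80 tRNA genes within 1 kb of a coding TSS, 19 had a thresholded summit within 1 kb (23.8%, 15.8 to 34.1). Of the 210 genes farther away, 14 did (6.67%, 4.01 to 10.9), where windows equally far from a coding TSS stood at 4.71%, a value inside that interval. Inside a protein-coding gene lay 134 tRNA genes, of which 9 had such a summit, against 24 of the 156 outside one. Within 250 bp of the gene, a thresholded summit lay at 7 of the 80 genes near a coding TSS (8.75%, 4.30 to 17.0). Of the 210 far genes, 3 had one that close (1.43%, 0.487 to 4.12), beside 1.37% of windows equally far. What part coding promoters play in these counts was not tested.

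**Figure D1:**
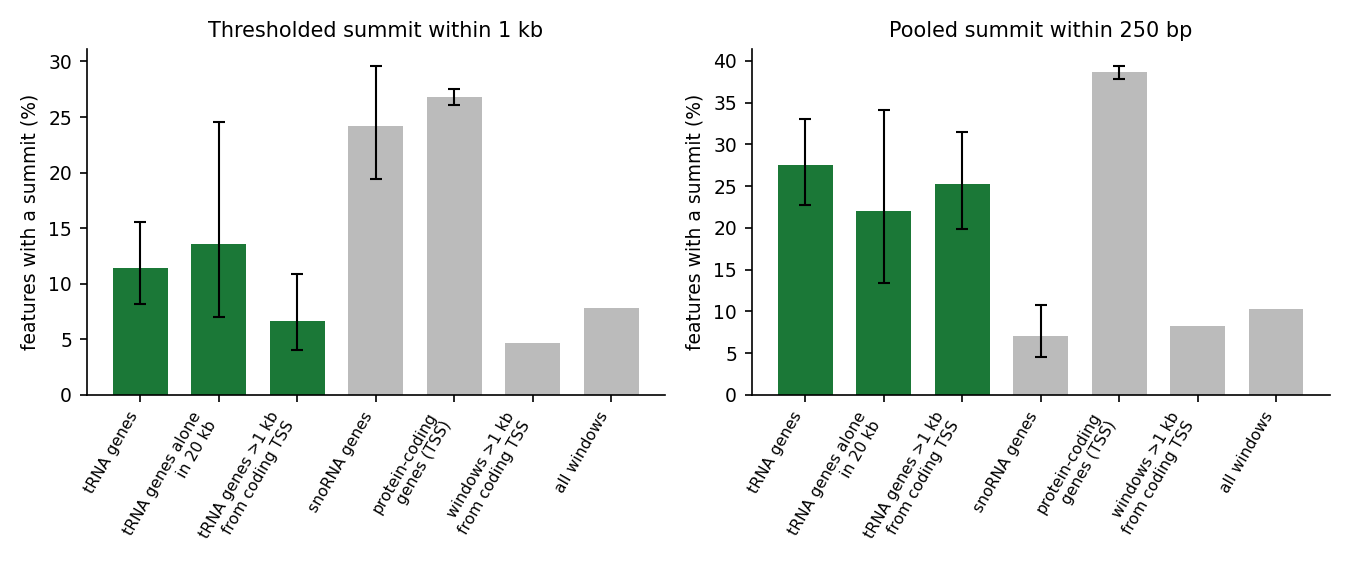
Percentage of features with a summit, for thresholded summits within 1 kb (left) and pooled summits within 250 bp (right); green bars are tRNA genes, grey bars are other genes or all windows of the median tRNA length, and whiskers are 95% Wilson intervals over genes. In the left plot tRNA genes (11.4%) stand below protein-coding genes (26.8%) and snoRNA genes (24.2%), and in the right plot tRNA genes (27.6%) stand above snoRNA genes (7.06%) and all windows (10.3%) and below protein-coding genes (38.6%).

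The 33 genes shared 26 thresholded peaks. Their signal ranged from 109 to 926, with a median of 201, beside 193 for all thresholded peaks, and their median percentile within the list was 52.5. They were thus spread through the whole thresholded list. Of the 26 summits, 14 (53.8%) lay within 500 bp of a coding TSS, beside 44.9% of all thresholded summits, and 10 lay over 1 kb from one. The tRNA gene was closer than any coding TSS for 15 of the 26. Sides were nearly even, with 15 summits upstream and 11 downstream of the nearest tRNA gene. By location, 16 summits were intergenic, 9 intronic and 1 in a coding exon.

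The strongest peak, rank 137 of 5701, lay 204 bp upstream of tRNA:Tyr-GTA-1-8 (3R 8669199 to 8669563). The pooled alignments gave it a signal of 926, against 534 in replicate 2 and 398 in replicate 3, with ranks 160 and 115 in the replicates' own lists. The summit was also 240 bp upstream of the TSS of CG8036. The next peak, 826 bp upstream of tRNA:Val-TAC-1-1 (3L 5355369 to 5355687), had signal 483 pooled, 317 in replicate 2 and 173 in replicate 3. It lay 171 bp from the TSS of CG46456, so the coding start was the nearer feature. The peak next in signal, 164 bp upstream of tRNA:His-GTG-1-3 (2R 12335126 to 12335317), had signal 382 pooled, 253 in replicate 2 and 122 in replicate 3, and stood 86 bp from the TSS of CG8490.

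Further down the list, the peak 195 bp upstream of tRNA:Leu-TAA-2-1 (3R 24112669 to 24112840) had signal 315 pooled, 205 in replicate 2 and 99.4 in replicate 3. This tRNA gene is alone in 20 kb, and its summit lay closer to it than to the TSS of CG13605 at 380 bp. The peak near tRNA:Glu-CTC-3-1 had signal 287 and that near tRNA:Val-CAC-2-5 had 275, the second of them in an intron of Naam, a nicotinamidase gene, 423 bp from its TSS. Ranked 7 to 12 among the 26 were peaks near tRNA:Thr-AGT-1-4, tRNA:Glu-TTC-1-5, tRNA:Arg-TCT-1-1, tRNA:Ile-AAT-1-9, tRNA:Ala-AGC-2-1 and tRNA:Trp-CCA-2-2, with signals from 258 down to 204.

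The 6 summits closest to a tRNA gene, at 77 to 204 bp, included those of tRNA:Tyr-GTA-1-8, tRNA:His-GTG-1-3 and tRNA:Leu-TAA-2-1 described above. The closest, that of tRNA:Glu-TTC-1-5, lay 77 bp downstream of the gene's end with pooled signal 244, replicate 2 signal 164 and replicate 3 signal 79.3 (2R 19727312 to 19727471). It was intergenic, 13307 bp from any coding TSS, in a cluster of 8 tRNA genes. A summit 92 bp upstream of tRNA:Thr-AGT-1-4 (3R 16431640 to 16432055) had signal 181 pooled, 101 in replicate 2 and 75.5 in replicate 3. That gene lies in CG31279, whose TSS was 349 bp away, and a further 2 thresholded peaks within 1 kb of it stood at 229 and 18 bp from the TSS of Fntb, a subunit of protein farnesyltransferase. The summit 166 bp from tRNA:Phe-GAA-1-2 (X 6744097 to 6744512) had signal 142 and stood 67 bp from the TSS of RpL17, a ribosomal protein gene.

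**Figure D2:**
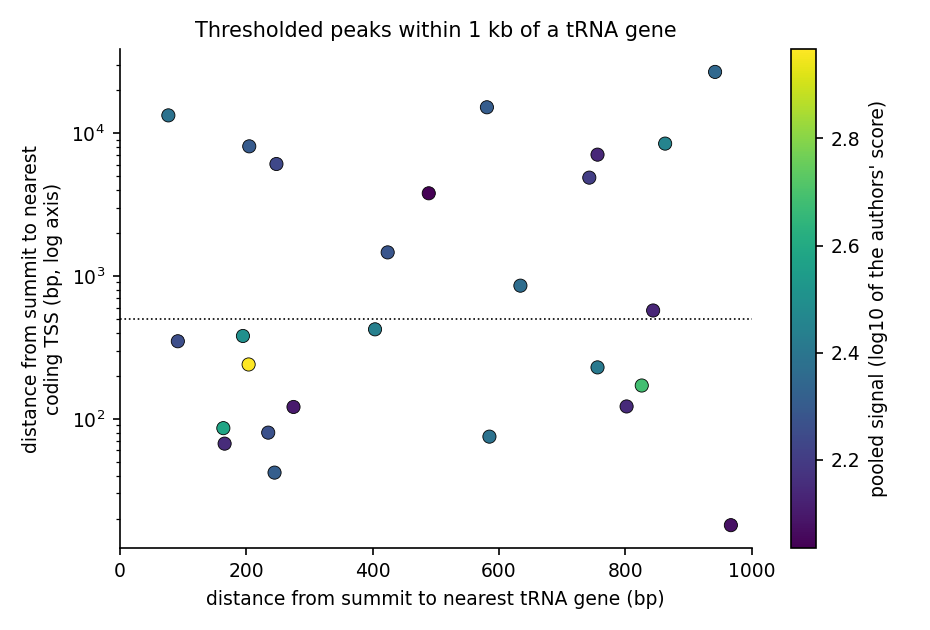
Distance of each of the 26 thresholded summits to the nearest tRNA gene (horizontal axis, bp) and to the nearest coding TSS (vertical axis, bp, log scale), coloured by log10 of the authors' pooled signal; the dotted line marks 500 bp. Summits lie on both sides of the line, 14 below it, and the strongest peak, 204 bp from its tRNA gene, is also 240 bp from a coding TSS.

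Nearly all of these peaks were found in both replicates. Replicate 2 had a partner summit within 100 bp for 25 of the 26, and replicate 3 for all 26. Across the 25 matched in both, signals had a Spearman correlation of 0.821, a description across peaks of the same 2 samples. The thresholded list was made from these replicates, so such agreement is partly built in. The weakest of the 26, near tRNA:Gly-GCC-1-2, had rank 5680 in the thresholded list, 10154 in replicate 2 and 3401 in replicate 3. At the 1 kb limit, the genes just inside were tRNA:Met-CAT-1-1, tRNA:His-GTG-1-2 and tRNA:Ala-AGC-2-1, at 867, 925 and 942 bp from a thresholded summit. Just outside were tRNA:Ile-AAT-1-3, tRNA:Met-CAT-1-2 and tRNA:Gly-GCC-1-5, at 1012, 1030 and 1057 bp.

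**Figure D3:**
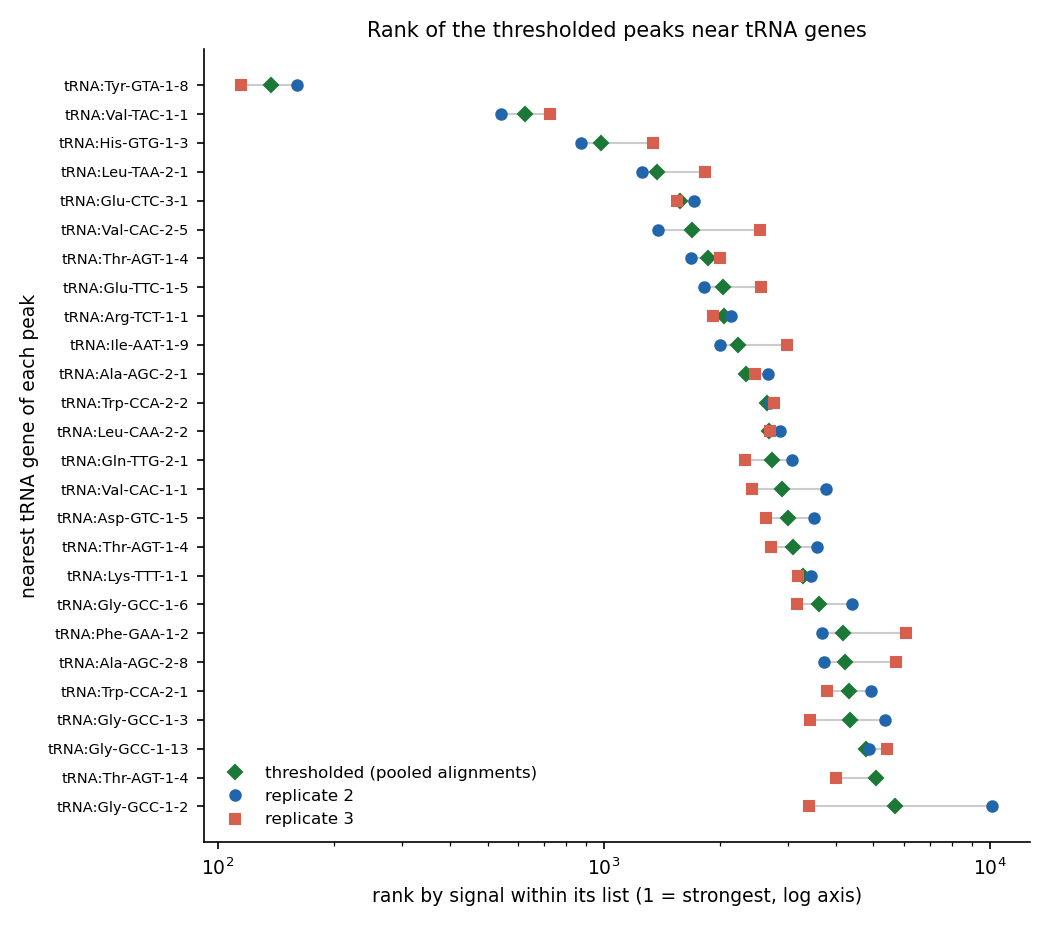
Rank by signal of the 26 thresholded peaks within 1 kb of a tRNA gene, in the thresholded list (green), replicate 2 (blue) and replicate 3 (red), on a log axis where 1 is strongest; each row is a peak, named by its nearest tRNA gene. The peak near tRNA:Tyr-GTA-1-8 has ranks 137, 160 and 115, and the lowest row has 5680, 10154 and 3401.

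In the longer pooled list, summits close to tRNA genes were more frequent. A pooled summit lay within 250 bp of 80 of 290 genes (27.6%, 22.8 to 33.0), in 45 clusters, where windows stood at 10.3%. Protein-coding genes had a pooled summit within 250 bp of a TSS in 38.6% of cases. The shares of other RNA genes lay on both sides of the tRNA genes. They were 7.06% for small nucleolar RNA genes, 32.9% for ncRNA genes, 34.4% for small nuclear RNA genes and 0 of 99 for rRNA genes. Of those 99, 96 are the 5S copies of 1 array. Among the 210 tRNA genes over 1 kb from a coding TSS, 53 had one (25.2%, 19.8 to 31.5), beside 8.23% of windows equally far. Of the 80 genes nearer to one, 27 did (33.8%, 24.4 to 44.6), so the 2 intervals overlap. Within 1 kb, 164 genes had a pooled summit (56.6%, 50.8 to 62.1), beside 29.5% of windows and 55.1% of protein-coding genes, and 118 of the 210 far genes did (56.2%), beside 24.4% of windows.

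The replicates differed in how often this occurred. Replicate 2 had a summit within 250 bp of 103 genes (35.5%, 30.2 to 41.2), beside 11.8% of windows. Replicate 3 had one at 49 genes (16.9%, 13.0 to 21.6), beside 10% of windows. Both shares stood above those of the windows. The 2 intervals are over the same 290 genes, so they do not measure the difference between the replicates, which was not tested. The lists also differ in length, with 30000 peaks in replicate 2 and 24781 in replicate 3. Within 1 kb the counts were 195 genes (67.2%) in replicate 2, beside 33.0% of windows, and 132 genes (45.5%) in replicate 3, beside 29.7%.

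Density by distance gave the same picture per base. Within 250 bp of a tRNA gene, the pooled list had 70 summits, 2.55 times the mean density of the arms. Replicate 2 alone gave 2.82 and replicate 3 alone 1.63. It was 2.85 with replicate 2 shortened to as many peaks as replicate 3 has, 1.65 in the thresholded list, from 10 summits, and 2.81 for the 60 pooled peaks below the threshold. It was 2.95 over 1 kb from a coding TSS and 2.13 for genes alone in 20 kb. The ratio did not fall steadily with distance. In the pooled list it was 4.71 inside the genes, 1.21 at 1 to 100 bp (13 summits) and 2.98 at 101 to 250 bp (37 summits). At 1 to 100 bp it was 1.99 in replicate 2 and 1.06 in replicate 3. From 1001 to 2000 bp the pooled ratio was 1.27, and in the bins from 2001 to 20000 bp it stayed at 1.18 to 1.26. The wider surroundings of tRNA genes thus stood above the arm mean too. Set against bases within 20 kb of a tRNA gene, the pooled ratio within 250 bp was 1.99. In the thresholded list the ratio to the arm mean at 10001 to 20000 bp was 1.52, near its value within 250 bp. The choice of 250 bp and the alternatives to this ratio were made after the values were seen.

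**Figure D4:**
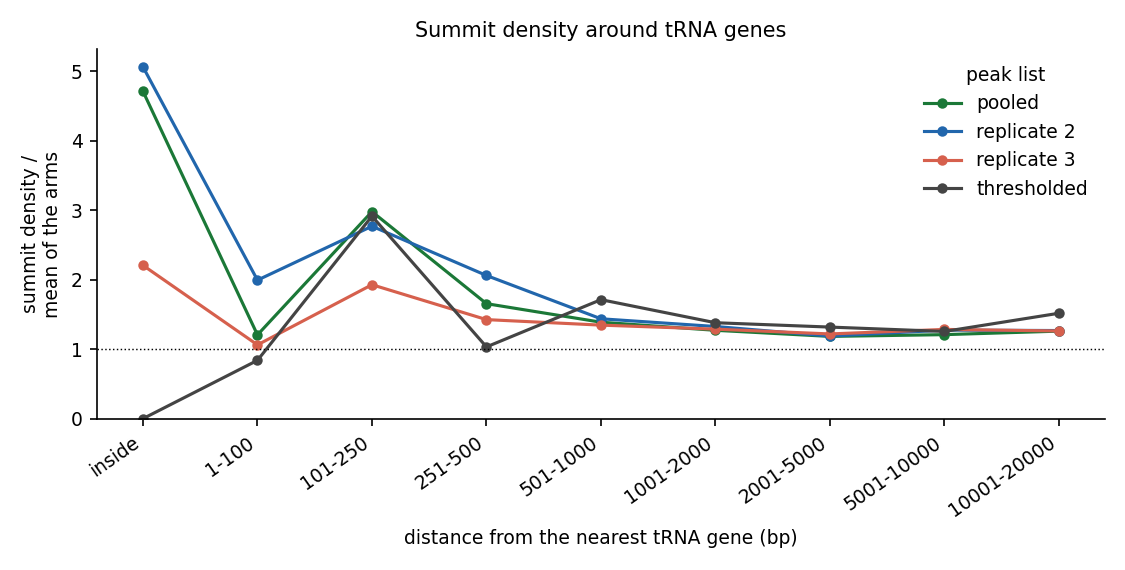
Density of summits at increasing distance from the nearest tRNA gene, as a ratio to the mean of the arms (dotted line at 1), for the pooled list (green), replicate 2 (blue), replicate 3 (red) and the thresholded list (grey). Inside the genes the ratio is 4.71 pooled, 5.07 in replicate 2, 2.21 in replicate 3 and 0 in the thresholded list, whose point at 101 to 250 bp rests on 8 summits.

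Weak summits inside tRNA genes made the highest density. The pooled list had 20 of them in 15 clusters, 4.71 times the arm mean, with signals from 31.9 to 76.9 and a best rank of 8223. Replicate 2 had 25 summits inside a tRNA gene (5.07 times) and replicate 3 had 9 (2.21 times). Of the 20, 14 had a replicate 2 summit within 100 bp and 6 a replicate 3 summit, beside 73.8% and 53.3% of all pooled summits below the threshold. The summit inside tRNA:Leu-TAA-1-1, in an intron of bon and 11664 bp from a coding TSS, had signal 61.6 pooled, 31.5 in replicate 2 and 22.5 in replicate 3. That inside tRNA:Gln-TTG-1-3 had 64.2 pooled and 40.9 in replicate 2, with no summit within 100 bp in replicate 3, and that inside tRNA:Cys-GCA-1-2 had 53.5 pooled and 37.6 in replicate 2, again with none in replicate 3. These 3 genes were chosen after their values were seen.

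How often weak summits were matched between replicates depended on the list. Of the 60 pooled summits below the threshold within 250 bp, 28.3% had a partner within 100 bp in both replicates, beside 36.4% of all below the threshold. Of the 90 replicate 2 summits within 250 bp of a tRNA gene, 25.6% had a partner in replicate 3, beside 42.4% of all its summits. In the other direction the order was reversed, at 26 of 43 (60.5%) beside 51.4%. None of these shares was tested. Of the 290 genes, 238 have at least 1 identical copy on the arms, and the sources used here do not say how reads matching several copies were placed. A pooled summit lay within 250 bp of 28.6% of those 238 genes and of 23.1% of the 52 with a sequence of their own.

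Windows of 101 bp around the summits were searched on both strands, and a match is a description only. The B box core occurred at 19 of the 20 pooled summits inside a tRNA gene (95%), where the gene itself supplies it, at 8 of the 40 other weak summits within 250 bp (20%) and at 2.98% of all pooled summits below the threshold. It occurred at 2 of the 26 thresholded summits near tRNA genes (7.69%), beside 3.17% of all thresholded windows. The E box CACGTG and the similar sequence CACGCG each occurred at 0 of the 26, which allows up to 11.5%, beside 0.684% and 1.18% of all thresholded windows. CACNAG occurred at 4 of 26 (15.4%), beside 9.70%. CGATA, the core of the longer TATCGATA bound by the factor DREF, occurred at 3 of 26 (11.5%), beside 15.8%, and TATCGATA at 1 of 26, beside 1.67%.

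By amino acid, Gly tRNA genes had the most members with a thresholded summit within 1 kb, 5 of 20, all with the anticodon GCC and in 5 clusters. Glu followed with 4 of 19, then Trp with 3 of 8 and Val with 3 of 15. Ser had 0 of 20, which allows up to 15.0%, and Asn 0 of 10, Cys 0 of 7, initiator Met 0 of 6 and selenocysteine 0 of 1. In the pooled list within 250 bp, Ala and Glu had the most, 8 of 17 and 8 of 19, and Ser had 4 of 20. With so few clusters per amino acid, these counts set no order.

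**Figure D5:**
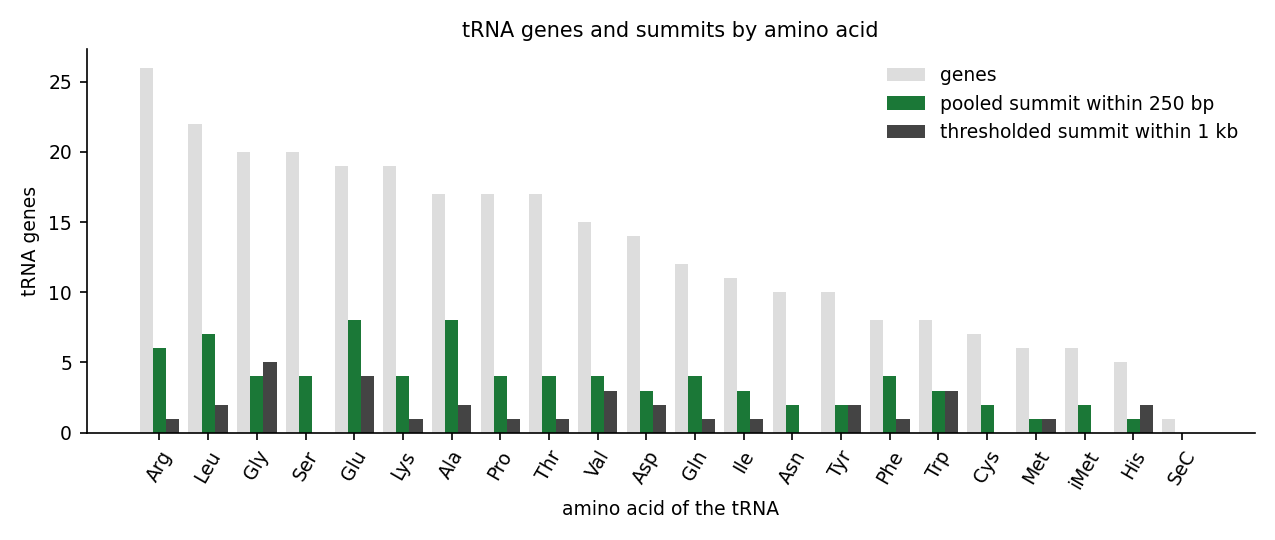
Number of tRNA genes on the arms by amino acid (light grey), with a pooled summit within 250 bp (green) and with a thresholded summit within 1 kb (dark grey); iMet is initiator methionine and SeC selenocysteine. Gly has 5 of 20 genes with a thresholded summit and Ser 0 of 20.

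The largest clusters differed in strong peaks. Of the 37 genes in clusters of 10 or more, 3 (8.11%) had a thresholded summit within 1 kb, beside 11.4% of all tRNA genes. A pooled summit lay within 250 bp of 15 of these 37 (40.5%), beside 27.6% of all tRNA genes and 22.0% of those alone in 20 kb. The cluster of 19 genes spanning 48.3 kb (2R 6142165 to 6190445) had 2 thresholded and 20 pooled summits in its span, none of its 19 genes had a thresholded summit within 1 kb, and 7 had a pooled summit within 250 bp. In the cluster of 18 genes (3R 17617761 to 17668259, 50.5 kb), 3 genes had a thresholded summit within 1 kb and 8 a pooled one within 250 bp. Of the 9 Glu-CTC genes at 3L 1379934 to 1401852, 1 had each. The 9 genes at X 14014814 to 14025647 had neither. The clusters of 8 genes differed, with 4 thresholded and 7 pooled at 2R 19715565 to 19728958, and 0 and 2 at 2R 13430282 to 13437939.

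Coding genes of RNA polymerase III and its factors, and of tRNA charging and processing, carried thresholded summits within 1 kb of a TSS in moderate numbers. Their shares are to be read beside the 26.8% of all protein-coding genes, and not all factors of the polymerase list need act at tRNA genes. RNA polymerase III and its factors stood at 7 of 19 (36.8%, 19.1 to 59.0). The strongest were Bdp1 and Brf, subunits of TFIIIB, with signals of 1070 and 869 at 98 and 158 bp from the TSS. The polymerase subunit Polr3E had a signal of 328, while Polr3A, Polr3B, Polr3C and Maf1, a repressor of the polymerase, had none. For Maf1 the nearest thresholded summit was 4447384 bp away, so the lack of a peak there is not particular to the gene. Cytoplasmic aminoacyl-tRNA synthetases, which charge tRNAs with amino acids, stood at 10 of 20 (50%, 29.9 to 70.1), with SerRS (656), GluProRS (651), IleRS (601) and ThrRS (395) highest, and LysRS, LeuRS, TyrRS and TrpRS among those without. Mitochondrial synthetases stood at 5 of 15 (33.3%, 15.2 to 58.3), with LeuRS-m at 730. Genes of tRNA processing stood at 4 of 11 (36.4%, 15.2 to 64.6), with RNaseZ, which trims the 3′ end, at 219 and La, which binds new polymerase III transcripts, at 162. The 26.8% of all genes lies below the interval of the cytoplasmic synthetases and inside those of the other lists, and no list was tested.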

How the data were processed

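Binding was measured by ChIP-seq in 2 biological replicates of 1 group. Per the labels and the deposited listings, peaks were called on each replicate and on pooled alignments with a control file, and a thresholded list was derived from them. The aligner and caller are not named in the sources used here, and read depth is unknown. The deposited signal is the authors' score per peak, and the deposited −log10 values are the authors' q values, which were not used. Lists on dm3 were not used.

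Genes came from Ensembl release 115, whose 290 tRNA coordinates equal those of RefSeq. Distances, shares and 95% Wilson intervals were computed with Python 3.11.15, numpy 2.4.6, pandas 2.3.3 and scipy 1.17.1. Intervals cover only the sampling of genes or peaks, and limits for a count of 0 are 3 counts of the total. Replicate summits within 100 bp were matched. Distance functions were tested on simulated data. No comparison between samples is possible with 1 group, so no test was made.

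Members and lists were chosen with earlier results of these data known. Named were the nearest tRNA genes of the 12 strongest and 6 closest thresholded peaks, 3 genes to each side of 1 kb, the 5 largest clusters with ties, the amino acids with most and fewest, and up to 4 coding genes per list with and without a peak. A gene that this rule names is not reported here. Sequences were left out for some of these genes. Of the coding symbols, 4 were absent from the annotation. The box cores replaced stricter forms, TGGCNNAGT and GTTCGANNC, after the shares of genes holding those (11.7% and 55.2%) were seen.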

Additional observations from a re-analysis of the deposited data

How the results depend on the processing

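No paired analysis was possible because there is 1 group. The share of tRNA genes with a thresholded summit within 1 kb (11.4%) was 6.90% with the stronger peaks of the list (above its median signal), 3.45% within 250 bp, 24.1% within 2 kb, 56.6% with the whole pooled list, 67.2% with replicate 2 and 45.5% with replicate 3. For clusters (18.3%) the values were 10.8% with the stronger peaks, 8.33% within 250 bp, 29.2% within 2 kb and 55.0% with the pooled list. For genes far from a coding TSS (6.67%) they were 1.43% within 250 bp, beside 1.37% of windows equally far, and 20.5% within 2 kb. The number of peaks (26) was 14 with the stronger peaks, 10 within 250 bp and 44 within 2 kb. The median percentile (52.5) was 31.8 among the stronger peaks and 49.8 to 53.2 with 1 replicate left out. The share at coding promoters (53.8%) was 34.6% within 200 bp. The density ratio within 250 bp (2.55) was 1.63 to 2.82 with 1 replicate left out, 1.65 in the thresholded list, and 1.32 and 1.48 with the strongest 5701 peaks of replicates 2 and 3. The alternatives to this ratio were chosen after seeing the data, and the cause of the changes was not tested. With the stricter box cores, which were tried first and replaced after their shares were seen, the B box share at pooled summits inside genes was 60%, against 95%, and the A box share 5.0%, against 30.0%. In windows of 100 bp to each side, CACNAG and CGATA each occurred at 38.5% of the 26 summits, beside 18.6% and 28.3% of all thresholded ones, so CGATA was below that share at 50 bp and above it here. The lists give no counts, so what read depth limits is unknown.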

Other observations

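Other RNAs made by RNA polymerase III differed among themselves. None of the 96 5S rRNA genes, which lie in 1 tandem array, had a summit within 1 kb in any of the lists; as copies in 1 array they are a single locus. The 3 U6 snRNA genes shared 1 thresholded peak, 109 bp from U6:96Ac, with signal 350 pooled, 189 in replicate 2 and 150 in replicate 3. The gene snRNA:U6atac had no summit within 1 kb in any list. The 7SK gene snRNA:7SKa had a thresholded summit at 601 bp with signal 1114, and weaker summits inside the gene in the pooled list (56.7), replicate 2 (48.2) and replicate 3 (53.6). The other 7SK gene, snRNA:7SKb, had no summit within 1 kb in any list. RNaseMRP:RNA had a summit inside the gene in the pooled list (73.5), replicate 2 (50.05) and replicate 3 (27.5) and no thresholded one within 1 kb. For RNaseP:RNA the nearest summit was 880 bp away in the pooled list, 880 bp in replicate 2 and 855 bp in replicate 3. It too had no thresholded one within 1 kb. Neither 7SL gene had a summit within 1 kb in any list. These genes were described by distance alone, and no difference from tRNA genes was tested.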
